A study of Mus musculus with 4 samples.

Results

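The 10 genes described here are 9 UDP-glucuronosyltransferases of mouse liver (Ugt1a1, Ugt1a6a, Ugt1a6b, Ugt1a9, Ugt2b1, Ugt2b5, Ugt2b34, Ugt2b35 and Ugt2b36) and Ugdh, the enzyme that makes their cosubstrate. They were taken by symbol from a count table of 25239 genes, and all 10 passed the filter on low counts. The extract group was C57BL/6 mice, 6 to 8 weeks old, that received Gynura segetum, a plant containing pyrrolizidine alkaloids, by stomach tube (30 g/kg daily, from a concentrate of 2 g/mL) over 3 weeks. The control group was mice of the same strain and age that received saline over the same 3 weeks. Each group has 2 libraries of whole-liver RNA, with 40013188 and 45754235 gene counts in the extract libraries and 49711750 and 32215268 in the control libraries. The labels give no sex, no collection time and do not say whether each library is a mouse of its own. A p-value here therefore rests on the spread between libraries, which may be technical.

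UDP-glucuronosyltransferases (UGTs) are membrane enzymes of the endoplasmic reticulum that join glucuronic acid to bilirubin, steroids, drugs and plant compounds, which makes them soluble enough for export into bile or blood. The glucuronic acid comes from UDP-glucuronic acid, which UDP-glucose dehydrogenase (Ugdh) makes in the cytosol by oxidising UDP-glucose. The Ugt1a genes lie in 1 locus, where a set of alternative first exons, each with its own promoter, is spliced to the same final exons, while each Ugt2b gene has a full set of exons of its own.

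Start regions are printed for Ugdh and Ugt2b35, the genes with the largest fold changes, and for Ugt2b36, a neighbour of Ugt2b35 with a small one. They show where these genes differ in sequence around the start of transcription. They are RefSeq sequences on GRCm38.p6, 300 bases from 250 before to 50 after the start of transcription, read along the gene's own strand. A start region was matched for 9 of the 10 genes, all except Ugt1a6b. The regions shown are Ugdh (chr5:65435793-65436092, minus strand), Ugt2b35 (chr5:87000610-87000909, plus strand) and Ugt2b36 (chr5:87092506-87092805, minus strand). Capitals mark matches to the motifs described after them, and the region of Ugt2b35 holds none.
Ugdh: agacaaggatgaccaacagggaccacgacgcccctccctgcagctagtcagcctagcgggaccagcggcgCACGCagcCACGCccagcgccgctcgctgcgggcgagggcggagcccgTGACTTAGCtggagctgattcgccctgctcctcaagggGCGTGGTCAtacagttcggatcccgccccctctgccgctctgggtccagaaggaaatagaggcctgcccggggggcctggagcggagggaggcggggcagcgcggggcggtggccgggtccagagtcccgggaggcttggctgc
Ugt2b35: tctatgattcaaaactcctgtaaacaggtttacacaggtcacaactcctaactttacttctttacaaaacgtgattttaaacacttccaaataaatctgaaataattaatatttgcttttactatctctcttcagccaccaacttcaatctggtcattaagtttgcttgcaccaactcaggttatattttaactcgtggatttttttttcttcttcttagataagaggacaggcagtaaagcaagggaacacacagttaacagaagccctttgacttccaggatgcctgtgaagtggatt
Ugt2b36: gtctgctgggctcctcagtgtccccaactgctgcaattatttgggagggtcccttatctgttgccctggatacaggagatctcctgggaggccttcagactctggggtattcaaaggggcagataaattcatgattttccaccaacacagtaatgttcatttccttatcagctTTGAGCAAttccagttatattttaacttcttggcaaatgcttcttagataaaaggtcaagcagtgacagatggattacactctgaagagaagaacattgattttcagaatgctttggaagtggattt

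Both strands were searched for 6 motifs. In the start region of Ugdh, TGACNNNGC, the core of the antioxidant response element that Nrf2 binds, matched at positions -132 to -124 (TGACTTAGC) and, on the other strand, at -94 to -86 (GCGTGGTCA). GCGTG, the core of the xenobiotic response element that the Ah receptor binds, matched there 3 times, at -180 to -176, -172 to -168 and -94 to -90, and the last of these overlaps the second antioxidant match. Neither motif matched in the other 8 start regions, and the first is held by 12.4%, the second by 32.4%, of all 32851 start regions given by RefSeq. Ugdh also had the highest share of G and C, at 71%, against 32% to 51.7% in the other 8. TTGCNNAA, a C/EBP-type motif, matched on the other strand in Ugt2b1, Ugt2b5 and Ugt2b36 but not in Ugt2b34 or Ugt2b35. It is held by 10.8% of all regions, and the match in Ugt2b1 spans the start of transcription (-4 to 4). The TATA box (TATAAA, 13.6% of all regions), the E-box (CACGTG, 7.15%) and the direct repeat bound by HNF4 and PPAR (0.219%) matched in none of the 9. A match describes letters in a window and shows no binding.

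After the extract, Ugdh and 3 UGT genes rose. Ugdh was 2.93-fold higher, Ugt2b35 2.79-fold, Ugt1a6a 1.91-fold and Ugt2b34 1.76-fold. The other 6 genes were not past the threshold, an adjusted p of 0.05 in edgeR's quasi-likelihood test over 13963 genes. Among all genes tested, 8.54% were called, 4.91% higher and 3.63% lower. The number of calls moved when 1 library was left out, among the 10 genes and over all genes alike. The ranges are given in the closing section. With all libraries, none of the 10 was called lower with edgeR or with DESeq2. At an unadjusted p under 0.05 in edgeR the count of lower members was also 0, while 7 were higher. No share over all genes is given for that unadjusted threshold. The median log2 fold change of the 10 genes was 0.70, beside -0.0047 over all genes tested. The groups did not overlap in any of the 10, with 9 higher and 1 lower, whereas 54.4% of all genes did not overlap, 27.6% higher and 26.7% lower.

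**Figure D1:**
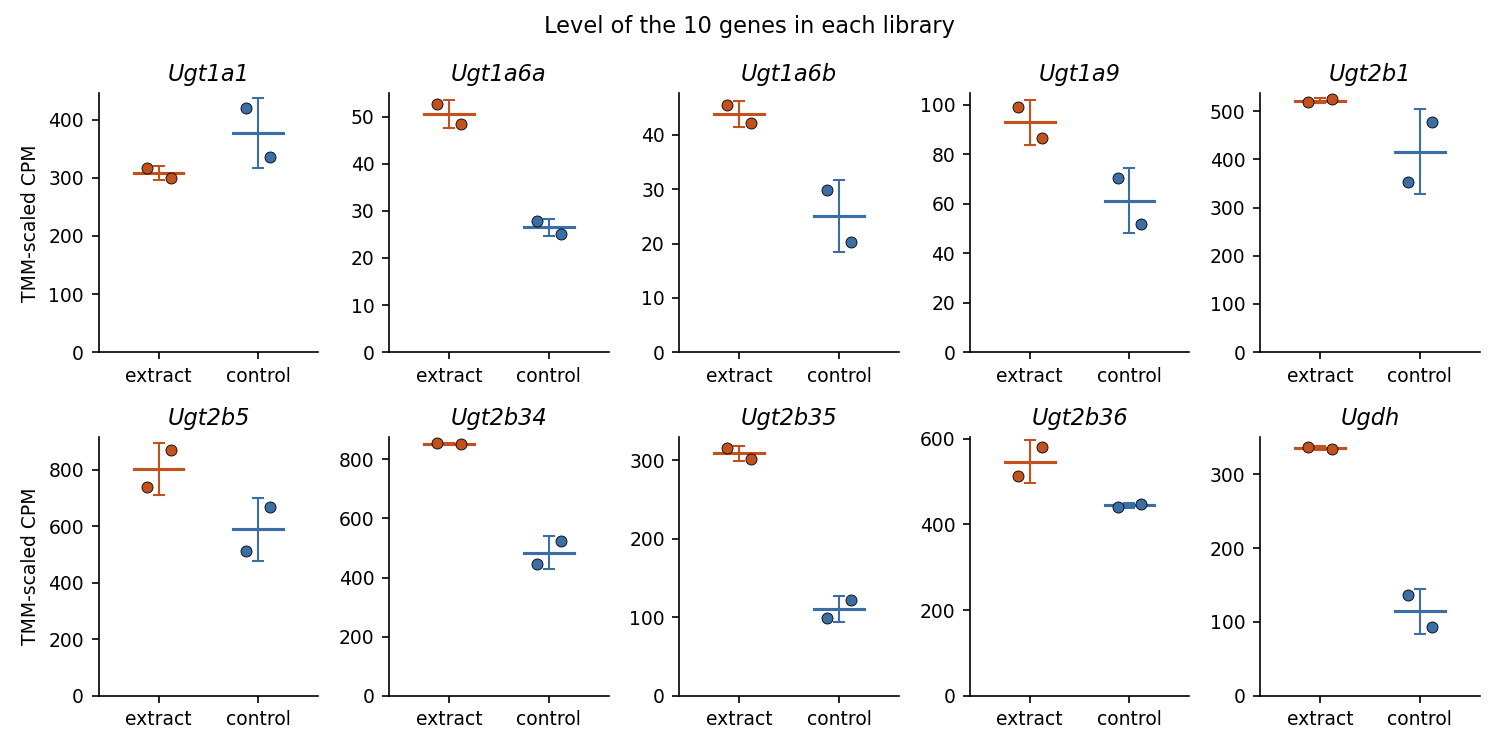
TMM-scaled CPM (vertical axes, from 0) for the 10 genes; points are libraries, horizontal lines group means and bars 1 SD (n = 2 libraries each), with extract left of control. The extract libraries lie above the control libraries in 9 panels and below them in that of Ugt1a1, and the extract points of Ugdh (337 and 334) nearly coincide.

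Ugdh, on chromosome 5 (65413207 to 65435842, mm10, minus strand, 12 exons), stands upstream of the UGTs described here because it makes their cosubstrate, UDP-glucuronic acid. Its level was 337 and 334 CPM (the gene's count relative to all gene counts of its library, scaled by the TMM method; 1 read was worth 0.0208 to 0.0337 CPM) in the extract libraries, against 136 and 92.7 CPM in the control libraries. Both extract libraries were far above both control libraries, and the control libraries differed from each other more than the extract libraries did. The log2 fold change was 1.55 (SE 0.20, 95% interval 1.06 to 2.04, edgeR adjusted p = 0.00777). It remained past the threshold in all 11 alternative fits, with log2 fold changes from 1.30 to 1.85.

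Among the Ugt2b enzymes, known mainly for steroids, fatty acids and drugs, Ugt2b35 had the largest log2 fold change. Ugt2b35 (chromosome 5, 87000860 to 87013274, plus strand) had 316 and 302 CPM in the extract libraries, against 99.2 and 122 CPM in the control libraries. The lowest extract value was well above the highest control value. Its log2 fold change was 1.48 (SE 0.16, 95% interval 1.11 to 1.86, edgeR adjusted p = 0.00347), and it too was past the threshold in all 11 alternative fits. Ugt2b34 (86889770 to 86906937, minus strand) had 854 and 852 CPM in the extract libraries and 444 and 523 CPM in the control libraries. The extract values were nearly equal, with a mean of 853 ± 1.56 CPM (SD, n = 2 libraries), and both lay well above the control values. Its log2 fold change was 0.82 (SE 0.15, edgeR adjusted p = 0.023). The call of Ugt2b34 was lost without extract replicate 1 (0.80, edgeR adjusted p = 0.188) and without extract replicate 2 (0.80, edgeR adjusted p = 0.178), where 1 extract library was assumed to vary like the control pair.

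Ugt2b5, Ugt2b1 and Ugt2b36 were higher in both extract libraries than in either control library but did not pass the threshold. Ugt2b5 (87124946 to 87140340, minus strand) had 739 and 869 CPM in the extract libraries, against 511 and 669 CPM in the control libraries (log2 fold change 0.45, 95% interval 0.01 to 0.89, edgeR adjusted p = 0.208). Ugt2b1 (86916639 to 86926503, minus strand) had 519 and 526 CPM in the extract libraries, against 354 and 478 CPM in the control libraries (log2 fold change 0.33, 95% interval -0.10 to 0.76, edgeR adjusted p = 0.338). In rat the enzyme of that name conjugates morphine. Ugt2b36 (87065927 to 87092555, minus strand) had 512 and 582 CPM in the extract libraries, against 440.1 and 448 CPM in the control libraries (log2 fold change 0.30, 95% interval -0.04 to 0.64, edgeR adjusted p = 0.274). The gap between the groups of Ugt2b1 was small beside the distance between its control libraries, and that of Ugt2b36 was about the size of the distance between its extract libraries. Without control replicate 2, Ugt2b1 (0.56, edgeR adjusted p = 0.0107) and Ugt2b5 (0.66, edgeR adjusted p = 0.0035) were past the threshold, with a lone control library assumed to vary like the extract pair.

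The 4 Ugt1a genes had log2 fold changes of both signs. Ugt1a6a and Ugt1a6b, which conjugate small planar phenols, had higher levels in both extract libraries than in either control library. Ugt1a6a (chromosome 1, 88134809 to 88220002, plus strand) had 52.6 and 48.5 CPM in the extract libraries, against 27.8 and 25.2 CPM in the control libraries. Both pairs were tight and far apart, with a log2 fold change of 0.93 (SE 0.14, 95% interval 0.60 to 1.26, edgeR adjusted p = 0.0113). That call was lost without extract replicate 1 (0.86, edgeR adjusted p = 0.107) and without extract replicate 2 (0.97, edgeR adjusted p = 0.0621). Ugt1a6b (88103257 to 88218998, plus strand) had 45.5 and 42.1 CPM in the extract libraries, against 29.8 and 20.3 CPM in the control libraries. It fell just short of the threshold (log2 fold change 0.80, SE 0.20, edgeR adjusted p = 0.0595), with its control libraries further apart than those of Ugt1a6a. It passed without control replicate 1 (1.11, edgeR adjusted p = 1.63e-08) and without control replicate 2 (0.56, edgeR adjusted p = 0.00408).

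Ugt1a9, an enzyme for phenols, was likewise higher in both extract libraries, and Ugt1a1, the enzyme that conjugates bilirubin, was lower in both extract libraries. Ugt1a9 (88070779 to 88220002, plus strand) had 99.2 and 86.5 CPM in the extract libraries, against 70.4 and 52.0 CPM in the control libraries (log2 fold change 0.60, 95% interval 0.16 to 1.04, edgeR adjusted p = 0.104). It passed without control replicate 1 (0.84, edgeR adjusted p = 1.12e-05) and without control replicate 2 (0.40, edgeR adjusted p = 0.0492). Ugt1a1 (88211959 to 88220002, plus strand) had 317 and 300.3 CPM in the extract libraries, against 420.4 and 335 CPM in the control libraries. The groups were separated by less than the distance between the control libraries, and the log2 fold change of -0.29 (95% interval -0.68 to 0.09) was not past the threshold (edgeR adjusted p = 0.345). Without control replicate 2 it was -0.44 with an adjusted p of 0.0398 in edgeR, and without control replicate 1 it was -0.12 with 0.691. The log2 ratio of Ugt1a6a to Ugt1a1, which does not depend on library scaling, was -2.59 and -2.63 in the extract libraries, against -3.92 and -3.73 in the control libraries, and that of Ugt1a9 to Ugt1a1 was -1.68 and -1.80 in the extract libraries, against -2.58 and -2.69 in the control libraries. Neither ratio overlapped between the groups (exact permutation test, 2-sided, p = 0.333 for each, the smallest that 2 against 2 libraries can give).

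**Figure D2:**
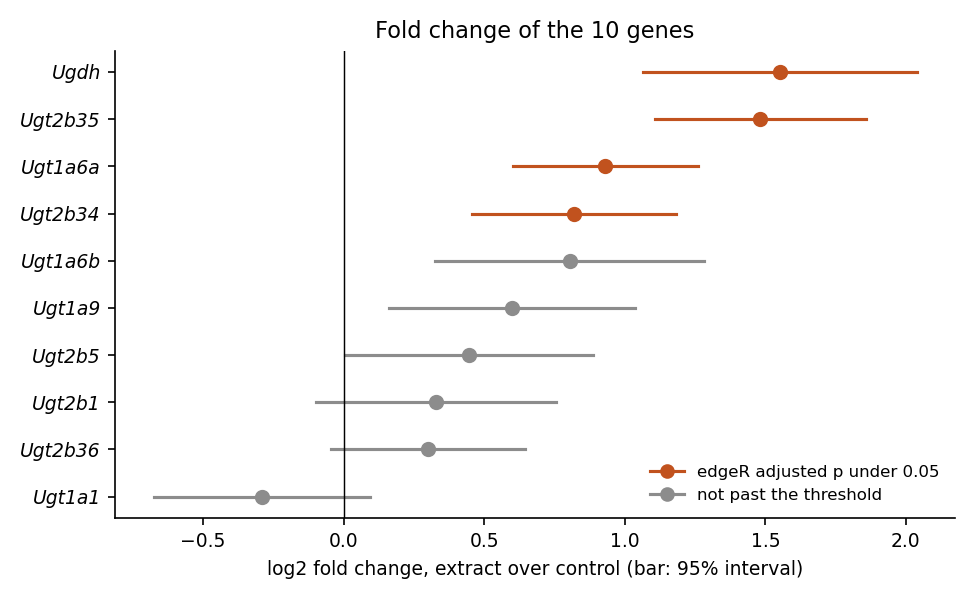
Log2 fold change of the 10 genes, extract over control (horizontal axis), with 95% intervals from edgeR's standard errors; orange marks an edgeR adjusted p under 0.05. Ugdh (1.55) and Ugt2b35 (1.48) lie furthest right, and the intervals of Ugt2b1, Ugt2b36 and Ugt1a1 include 0.

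The control libraries differed from each other in a way that split the families. The 4 Ugt1a genes and Ugdh were higher in control replicate 1 than in control replicate 2, by 0.14 (Ugt1a6a) to 0.56 (Ugdh) on the log2 scale. All 5 Ugt2b genes were lower in control replicate 1, by a log2 ratio between -0.43 (Ugt2b1) and -0.03 (Ugt2b36). The same log2 ratios within the extract pair ran from -0.23 (Ugt2b5) to 0.20 (Ugt1a9). Over all genes, counts of the control pair had a chi-square of 118 times its degrees of freedom, against 29.1 for the extract pair. Control replicate 1 also had more of Nqo1, a quinone reductase and Nrf2 target, with 15.0 CPM against 8.35 CPM in control replicate 2. Other Nrf2 targets differed between the control libraries in both directions. Gclc had 465 CPM in control replicate 1 against 300 CPM in control replicate 2, and Me1 had 81.6 against 136 CPM.

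The sequences that the counts rest on differ between the families. In the gene models used here (GENCODE vM21 transcripts paired with RefSeq), 879 to 986 bases of each Ugt1a transcript belong to no other gene: the first exon of Ugt1a1 and Ugt1a9, and the first and second exons of Ugt1a6a and Ugt1a6b. The remaining exons are common to the locus, and the sources used here do not give how the authors' counting treated reads on them. The own exons of Ugt1a6a and Ugt1a6b are 97.4% identical (960 of 986 aligned bases). Of their stretches of 75 bases, 56.2% occur in no other gene, and of stretches of 150 bases 74%. A window of 60 bases where they differ most, with 9 differences in capitals, lies at chr1:88138769-88138828 in Ugt1a6a and at chr1:88107237-88107296 in Ugt1a6b (GRCm38, plus strand) and is printed to show how little separates their reads.
Ugt1a6a: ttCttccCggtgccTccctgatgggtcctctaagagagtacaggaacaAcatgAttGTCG
Ugt1a6b: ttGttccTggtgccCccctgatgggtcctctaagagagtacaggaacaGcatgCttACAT

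The single values of Ugt1a6a and Ugt1a6b are therefore less certain than their sum. With their counts added and tested as 1 gene, an alternative chosen after seeing the data, the log2 fold change was 0.87 (SE 0.16, edgeR adjusted p = 0.0226). Ugt2b5 shares 507 of its 1784 stretches of 75 bases with Ugt2b38, a gene at 3.69 and 4.16 CPM in the extract libraries and 4.77 and 8.41 CPM in the control libraries, so its count is less certain as well. For Ugt2b1, Ugt2b35, Ugt2b36, Ugdh and Ugt1a1 all such stretches were found in no other gene, and for Ugt2b34 and Ugt1a9 98.8% and 98.9% were.

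Levels of different genes can be compared only per length, here as CPM per kb of exon that no other gene covers. In the extract libraries the order was Ugt2b5 (433 ± 49.5 CPM per kb; SD, n = 2 libraries here and below), Ugt1a1 (338 ± 12.9), Ugt2b36 (289.5 ± 26.2), Ugt2b34 (279.6 ± 0.51), Ugt2b1 (203 ± 1.86), Ugdh (132 ± 0.91), Ugt1a9 (106 ± 10.2), Ugt2b35 (92.0 ± 2.86), Ugt1a6a (51.2 ± 2.97) and Ugt1a6b (44.4 ± 2.45). In that group only Ugt2b36 and Ugt2b34 overlapped as neighbours. In the control libraries Ugt1a1 came first (414 ± 66.0 CPM per kb), followed by Ugt2b5 (318 ± 59.9), Ugt2b36 (235 ± 2.90), Ugt2b1 (162 ± 34.1), Ugt2b34 (159 ± 18.3), Ugt1a9 (69.6 ± 14.9), Ugdh (44.9 ± 12.1), Ugt2b35 (33.0 ± 4.82), Ugt1a6a (26.9 ± 1.87) and Ugt1a6b (25.4 ± 6.78). There the neighbours Ugt2b1 and Ugt2b34, Ugdh and Ugt2b35, and Ugt1a6a and Ugt1a6b overlapped. By these values the bilirubin enzyme came second in the extract libraries and first in the control libraries, while Ugt2b5 had the opposite places. In control replicate 2 they were close (367 CPM per kb for Ugt1a1 and 360 for Ugt2b5). If reads on the common exons were counted to Ugt1a genes, the per-kb levels of those genes are too high. Multiply aligned records, in turn, stayed out of the gene counts. Of stretches of 75 bases, 69.6% in Ugt2b5 and 56.2% in Ugt1a6a and Ugt1a6b occur in no other gene. The per-kb levels of Ugt2b5, Ugt1a6a and Ugt1a6b may therefore be too low, which leaves their places in the order uncertain.

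**Figure D3:**
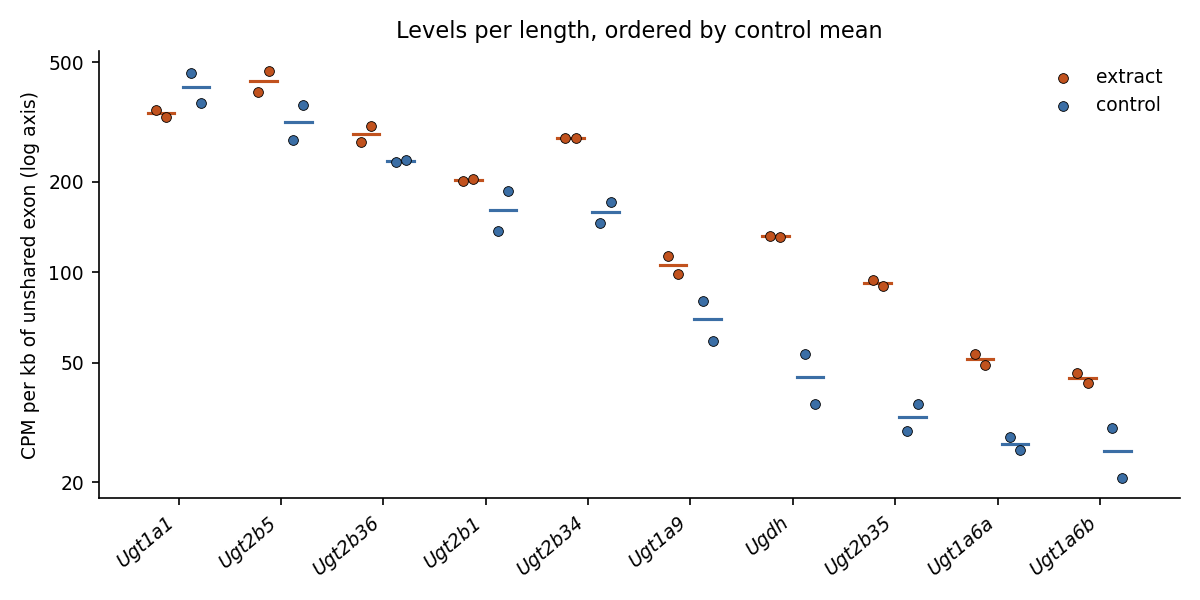
CPM per kb of unshared exon on a log axis for each of the 10 genes, ordered by the control mean; points are libraries and lines group means, with extract left of control. Ugt1a1 is the gene whose extract points (347 and 329) lie below its control points (460.4 and 367).

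Summed over the 9 UGT genes, the level was 3454 and 3608 CPM in the extract libraries, against 2397 and 2673 CPM in the control libraries, a ratio of means of 1.39. Nearly all of that difference lay in the Ugt2b genes. The 5 Ugt2b genes summed to 2940 and 3130 CPM in the extract libraries, against 1849 and 2240 CPM in the control libraries, while the 4 Ugt1a genes summed to 514 and 477 CPM in the extract libraries and 548 and 433 CPM in the control libraries. The Ugt1a genes held 14.9% and 13.2% of the 9-gene sum in the extract libraries, against 22.9% and 16.2% in the control libraries. Taken per kb of unshared exon, the Ugt1a share was 31.0% and 27.8% in the extract libraries, against 42.2% and 32.3% in the control libraries. The sum and both shares did not overlap between the groups (exact permutation test, 2-sided, p = 0.333 for each, again the smallest possible). The difference in the share of CPM was -5.47 percentage points, -2.13 without control replicate 1 and -8.81 without control replicate 2. Within the sum, Ugt2b35 held 9.15% and 8.38% in the extract libraries, against 4.14% and 4.57% in the control libraries, and Ugt2b34 held 24.7% and 23.6% in the extract libraries, against 18.5% and 19.6% in the control libraries. Ugt1a1 held 9.18% and 8.32% in the extract libraries, against 17.5% and 12.5% in the control libraries.

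Along the chromosomes, positive log2 fold changes lay next to each other in both clusters, and so did the negative ones of the Ugt2 cluster. Of 8 Ugt1a genes with a value, the 7 whose first exons lie further from the common exons had positive values, from 0.53 (Ugt1a5) to 1.27 (Ugt1a7c), of which Ugt1a6a alone passed the threshold. Ugt1a1, whose first exon is nearest to the common exons, had the negative one. On chromosome 5, the 5 Ugt2b genes described here are the first 5 of the Ugt2 cluster and all had positive values. The next 3, Ugt2b37 (-0.75), Ugt2a3 (-0.50) and Ugt2b38 (-0.74), had negative values, none past the threshold in edgeR (unadjusted p = 0.274, 0.00844 and 0.0626). Without control replicate 1 all 3 were past it in edgeR, with Ugt2b37 at -1.38 (adjusted p = 6.42e-12), Ugt2b38 at -1.10 (0.00115) and Ugt2a3 at -0.50 (0.0172). Without control replicate 2, Ugt2a3 alone was past it (-0.49, edgeR adjusted p = 0.0173), Ugt2b38 was at -0.28 and Ugt2b37 turned to 0.35. Ugt2b35, which had the largest value, is the only gene on the plus strand among these 8. The 10 genes were chosen with earlier results known, so this order is a description.

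**Figure D4:**
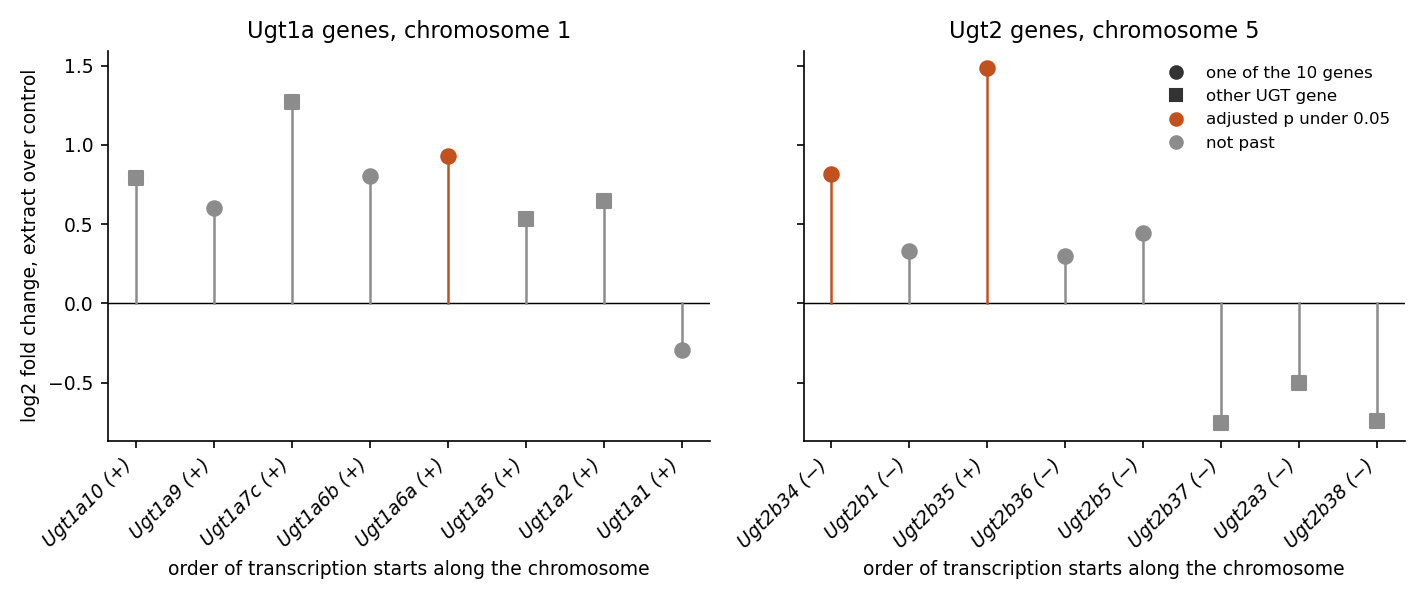
Log2 fold change (extract over control) of Ugt1a genes on chromosome 1 and Ugt2 genes on chromosome 5, in the order of their transcription starts; circles are the genes described here, squares other UGT genes, orange an edgeR adjusted p under 0.05, and the sign after a name is the strand. Ugt1a1 (-0.29) is the Ugt1a gene below 0, and Ugt2b37, Ugt2a3 and Ugt2b38 are the Ugt2 genes below 0.

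Of the UGT genes outside the 10, 2 fell and none rose. Of 10 tested, Ugt3a1 and Ugt3a2, which use other UDP-sugars than UDP-glucuronic acid, fell, and 8 did not pass, with a median log2 fold change of -0.35 over the list. The count called higher was 0 with edgeR, 1 with DESeq2 and 2 at an unadjusted p under 0.05 in edgeR. Lower calls numbered 2, 3 and 3 in the same order, and no share over all genes is given for the unadjusted threshold. With DESeq2, Ugt2a3 was past the threshold as lower (DESeq2 adjusted p = 0.0141) and Ugt1a5 as higher (0.0298). Ugt3a1 had 13.2 and 17.9 CPM in the extract libraries, against 41.4 and 69.6 CPM in the control libraries (log2 fold change -1.83, edgeR adjusted p = 0.0167). Ugt3a2 had 180 and 190.2 CPM in the extract libraries, against 300.3 and 399 CPM in the control libraries (log2 fold change -0.92, edgeR adjusted p = 0.0246). Both calls were lost without extract replicate 1 (edgeR adjusted p = 0.0709 and 0.184), and that of Ugt3a2 also without extract replicate 2 (0.127). Ugt2a3 (-0.50) and Ugt1a5 (0.53) had edgeR adjusted p-values of 0.0757 and 0.0734, and Ugt1a5 was past the threshold without control replicate 1 (0.0389) and without control replicate 2 (0.000562). Ugt2a1 and Ugt2a2 had too few counts to be tested, and Ugt1a8 was not analysed here.

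Of 11 genes that make, carry or break down UDP-sugars or their precursors, 2 rose (Slc35d1 and Nudt14) and 9 did not pass, with a median of 0.28. None was called higher without extract replicate 1 or without extract replicate 2. Slc35d1, which carries UDP-glucuronic acid into the endoplasmic reticulum, had 130.2 and 149 CPM in the extract libraries, against 72.1 and 82.7 CPM in the control libraries (log2 fold change 0.85, edgeR adjusted p = 0.0186). Nudt14, which hydrolyses UDP-glucose, rose by 0.99 (edgeR adjusted p = 0.014), while Ugp2, which makes UDP-glucose, was at 0.45 (0.1, and 0.033 without control replicate 1) and hexokinase 2 (Hk2) at -1.44 (0.117, and 0.00176 without control replicate 2). Slc35d1 and Nudt14 lost their calls without extract replicate 1 (edgeR adjusted p = 0.0937 and 0.12) or without extract replicate 2 (0.206 and 0.136). Of 7 genes of glucuronide hydrolysis and of the route from glucuronate to ascorbate and xylulose, Dcxr, which reduces L-xylulose, rose by 1.75 (edgeR adjusted p = 0.00095), and 6 did not pass (median 0.04), among them Akr1a1 (0.20), Xylb (0.18) and Cryl1 (-0.09). Dcxr had 244 and 239 CPM in the extract libraries, against 70.6 and 72.7 CPM in the control libraries.

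On the bilirubin side, Blvrb, a biliverdin and flavin reductase, rose by 1.36 (edgeR adjusted p = 0.0235) and the other 3 of 4 genes of haem breakdown did not pass. Haem oxygenase 1 (Hmox1) had 11.4 and 11.6 CPM in the extract libraries, against 50.1 and 21.5 CPM in the control libraries (log2 fold change -1.64, edgeR adjusted p = 0.0873). Without control replicate 1 it was -0.91 and without control replicate 2 it was -2.12, past the threshold in both fits. Hmox2 was at 0.13 and Blvra, which makes most adult bilirubin, at -0.10, and the median was 0.02. The call of Blvrb was lost without extract replicate 1 (edgeR adjusted p = 0.0753) and without extract replicate 2 (0.0891). Among 10 transporters of conjugates, 3 export pumps rose and 7 did not pass (median 0.16). Abcc4, a pump of the sinusoidal membrane, had 43.9 and 29.0 CPM in the extract libraries, against 4.90 and 2.79 CPM in the control libraries (log2 fold change 3.23, edgeR adjusted p = 0.00509). Abcg2 (0.98, edgeR adjusted p = 0.0118) and Abcc2 (0.81, 0.039), the canalicular pump for bilirubin glucuronides, rose as well, and Abcb1a was at 1.33 (0.23). Abcb1a was past the threshold at 2.41 without control replicate 1 (edgeR adjusted p = 1.6e-15), at 0.75 without control replicate 2 (0.00133) and with DESeq2 (DESeq2 adjusted p = 0.0289). Abcg2 and Abcc2 lost theirs without extract replicate 1 (edgeR adjusted p = 0.0677 and 0.391) or without extract replicate 2 (0.0811 and 0.0781).

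Among 14 transcription factors known to act on UGT genes, Nfe2l2, which encodes Nrf2, rose by 1.23 (edgeR adjusted p = 0.0118) and the Ah receptor gene Ahr by 0.69 (0.0399), and 12 did not pass (median -0.10). Hnf4a (-0.40, edgeR adjusted p = 0.158), a factor of hepatocyte identity, was lower in both extract libraries without passing, and was past the threshold without control replicate 2 (-0.46, edgeR adjusted p = 0.0418). The call of Ahr was lost without either extract library (edgeR adjusted p = 0.299 and 0.235), and that of Nfe2l2 without extract replicate 2 (0.0587). Of 13 Nrf2 target genes 7 rose and 6 did not pass (median 1.54). The rise was 4.63 for Gstm3, 2.93 for Srxn1, 2.38 for Gstm1 and 2.26 for Nqo1, and reads of a Gstm gene can also match its near-identical relatives. Of 5 Ah receptor targets, Nqo1 alone rose and 4 did not pass (median 0.43), with Cyp1a1 at 1.96 (edgeR adjusted p = 0.121, and 0.000442 without control replicate 2), Cyp1a2 at 0.40 (0.173, and 0.0204 without control replicate 2) and Tiparp at 0.05 (0.933). Of 12 targets of the xenobiotic receptors CAR and PXR, 4 rose, 1 fell and 7 did not pass (median 0.61). Por (1.22), Gstm1 and Aldh1a7 (0.66) were among those that rose, and Cyp2b9 fell (-1.57). The call of Aldh1a7 was lost without extract replicate 1 (edgeR adjusted p = 0.216) and without extract replicate 2 (0.399). These lists share genes with each other and were written with earlier results known.

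**Figure D5:**
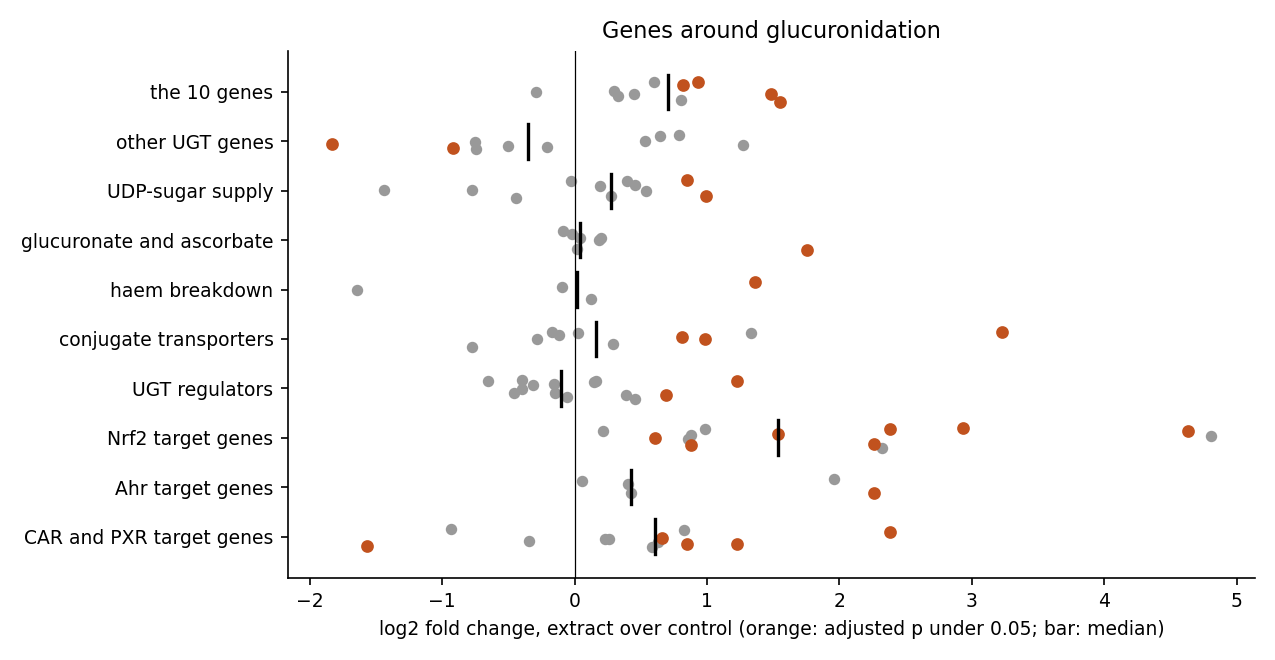
Log2 fold change (extract over control, horizontal axis) of each tested gene in the 10 genes described here and in 9 lists around glucuronidation; points are genes, orange an edgeR adjusted p under 0.05, and black bars medians. The median is 0.70 for the 10 genes, -0.35 for other UGT genes and 1.54 for Nrf2 targets.

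UGT genes are expressed mainly in hepatocytes, and whole-liver RNA cannot tell fewer cells of a type from less RNA per cell. The 12 hepatocyte markers summed to between 117605 and 123469 CPM in the extract libraries, against 177007 to 183016 CPM in the control libraries, with 4 lower and 8 not past the threshold. Albumin (Alb) alone held 69267 and 74606 CPM of these sums in the extract libraries, against 105691 and 109141 CPM in the control libraries. Log2 fold changes of the 12 ran from -1.18 to 0.15, with a median of -0.53. The 12 markers of pericentral hepatocytes summed to 10859 and 11486 CPM in the extract libraries and 7328 and 12137 CPM in the control libraries, with 1 higher (Gstm1). Gstm1 alone held 5346 and 5265 CPM of these sums in the extract libraries, against 1137 and 897 CPM in the control libraries, and the other 11 markers summed to 5513 and 6221 CPM in the extract libraries, against 6191 and 11240 CPM in the control libraries. The 10 Kupffer cell markers summed to between 59.9 and 60.5 CPM in the extract libraries, against 535 to 669 CPM in the control libraries, with 9 lower and none of the 10 at 0 in both extract libraries. The 10 sinusoidal endothelial markers summed to 264 to 282 CPM in the extract libraries, against 406 to 414 CPM in the control libraries, with 6 lower and 4 not past the threshold. Their log2 fold changes ran from -2.25 to 0.84. Of the 10, 7 were lower in both extract libraries than in either control library (26.7% of all genes tested). The other 3 were higher in both (27.6% of all genes), none past the threshold. The 10 cholangiocyte markers, 8 of them tested, summed to 62.6 CPM in both extract libraries, against 62.2 and 66.8 CPM in the control libraries, with 1 lower. The part of these cell populations in the UGT and Ugdh values was not tested.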

How the data were processed

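RNA of 2 extract-treated and 2 saline-treated liver libraries was sequenced, per the labels. The deposited files hold raw counts per gene symbol, 1 file per library. CASAVA 1.8, HISAT2 2.1.0, HTSeq and the mm10 build are named per the submitters' processing notes, without roles. The sources used here do not give read length, strand setting, annotation or counting mode. Counts on antisense or overlapping genes therefore cannot be told apart. The 5 closing rows that name no gene took 16.5% to 22.0% of records, of which records on more than 1 gene took 0.989% to 1.21% and multiply aligned ones 5.18% to 9.03%, and stayed out of library sizes and tests.

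Groups follow the sample titles. The test was that of edgeR 4.0.16 (R 4.3.3, filterByExpr, TMM scaling, robust dispersion and quasi-likelihood fits, 2-sided F test), with Benjamini-Hochberg adjustment over the 13963 genes kept and a threshold of 0.05. A standard error is the log2 fold change over the square root of F, and intervals use t quantiles. One read is worth 0.0208 to 0.0337 CPM, and a count of 0 allows up to 0.0625 to 0.101 CPM (3 counts), for counting error only. Gene positions are those of RefSeq for GRCm38.p6 (mm10). The edgeR step was tested on simulated data.

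The 10 genes and all lists were chosen with earlier results of these data known. All 10 are named, and from each other list up to 4 members with the smallest p and a mean of at least 1 CPM; other UGT genes in the 2 clusters are named for their place, and 1 gene that the rule names is not reported here. Alternatives were scaling by DESeq2's size factors or total counts, DESeq2 1.42.0, no filter or a strict filter (at least 10 counts in 2 libraries, mean CPM of 1 or more), omission of each library in turn, and a replicate block.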

Additional observations from a re-analysis of the deposited data

How the results depend on the processing

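Of the 10 genes, Ugdh, Ugt2b35 and Ugt2b36 kept their direction and their side of the threshold in all 11 alternatives, and none of the 10 changed direction in any. The members called higher numbered 4 with DESeq2's size factors, total gene counts and the strict filter, and 6 with no filter, with DESeq2 and with the replicate block, where Ugt1a6b and Ugt1a9 were added. Leaving out 1 library gave 2 to 8 members higher and 0 to 1 lower, and over all genes 367 to 3591 calls (233 to 1826 higher, 134 to 1782 lower), beside 686 higher and 507 lower with all libraries. The lowest counts came without extract replicate 1 and the highest without a control library. The cause was not tested. DESeq2 called 1928 genes, 904 of them lower. Scaling by total gene counts moved the median log2 fold change of all genes to 0.16 and gave 940 higher and 338 lower (73.6% of calls higher, against 57.5% with TMM).

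The log2 ratio of the 9-gene sum was 0.48, from 0.40 to 0.56 with a library left out and 0.65 by total counts, and the difference in the Ugt1a share ran from -8.81 to -2.13 percentage points. The labels do not say that equal replicate numbers share a litter or batch, and the deviations of same-numbered libraries correlated at 0.22 across genes. The replicate block gave 1584 calls (902 higher, 682 lower).

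Of 40 other genes followed through the alternatives, 5 changed sign in an alternative, none of them past the threshold where the sign had changed: Cryl1 (0.072 by total counts, -0.26 to 0.11 with a library left out), Blvra (0.071 by total counts), and with a library left out Tiparp (-0.12 to 0.27), Ugt2b37 (-1.38 to 0.35) and Ugt8a (-0.78 to 0.18). With 1 library left out, the higher calls ran from 0 to 3 on UDP-sugar supply and on other UGT genes (0 to 5 lower there), 1 to 6 on transporters, 0 to 5 on regulators, 4 to 12 on Nrf2 targets, 1 to 3 on Ah receptor targets and 2 to 7 on CAR and PXR targets. With 2 libraries a group, differences near the spread of the control pair are not detectable.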
